A study of Mus musculus with 6 samples.

Results

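The catalogue gene probes of this study's array are the non-control spots whose probe names begin with A_51_P, A_52_P, A_55_P, A_65_P or A_66_P, the prefixes that Agilent's mouse catalogue uses for probes against genes. They were chosen by name alone and numbered 39430 of 151045 non-control probes, or 26.1%. A_55_P accounts for 25000 of them, A_51_P for 7048, A_52_P for 5143, A_66_P for 2003 and A_65_P for 236. The remaining probes are 16251 catalogue probes with the prefix A_30 and 95364 custom probes. Each probe is a single strand of 60 nt, printed once, and the files pair it with a sequence but with no gene symbol, so results are given by probe.

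RNA came from macrophages that had been derived from the bone marrow of BALB/c mice (wild type). All cells were grown for 7 days with 20% serum and 20% L929 cell supernatant, and were rested for 24 h with 10% serum. M1 cells were then stimulated for 48 h with lipopolysaccharide (LPS) at 100 ng/mL plus 20 ng/mL of interferon-γ. M2 cells received interleukin-4 (IL-4) at 20 ng/mL for the same time. Each group has 3 one-colour arrays, 1 per RNA sample, and the labels state that the samples of a group derive from different mice. No unstimulated cells were arrayed, so no comparison with resting cells can be made and a difference does not tell which group moved.

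LPS and interferon-γ drive macrophages towards a state with strong inflammatory cytokine and microbicidal output, known as M1 or classical activation. IL-4 signals through STAT6 and drives the M2 or alternative state, which is known for scavenger and lectin receptors, chitinase-like proteins and arginine metabolism. A gene probe on such an array reports how much labelled RNA of complementary sequence a sample holds, so 1 gene can be read by several probes and probes of similar sequence can read one another's RNA.

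Examples of probes that differed between M1 and M2 are shown first, because their sequences are the main handle on the transcripts. For every prefix the probe with the largest difference in each direction was taken, so some larger differences in the class are left out. It had to pass the test described further on, to stand well above background on each of the 6 arrays, and to show no overlap between the groups. All sequences are as the files give them, 5′ to 3′. Capitals mark AATAAA, the canonical polyadenylation signal, and TATTTAT, a core of AU-rich elements. These were higher in M1:
A_51_P517695: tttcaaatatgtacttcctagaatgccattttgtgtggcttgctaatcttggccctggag
A_52_P327664: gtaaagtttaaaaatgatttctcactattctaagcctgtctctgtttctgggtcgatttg
A_55_P2158741: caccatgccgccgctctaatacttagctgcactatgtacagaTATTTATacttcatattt
A_65_P01319: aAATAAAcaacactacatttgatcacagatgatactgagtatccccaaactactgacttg
A_66_P108965: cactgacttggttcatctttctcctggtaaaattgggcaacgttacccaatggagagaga

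The corresponding probes that were higher in M2 were:
A_51_P167292: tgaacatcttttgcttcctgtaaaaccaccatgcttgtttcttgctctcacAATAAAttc
A_52_P71686: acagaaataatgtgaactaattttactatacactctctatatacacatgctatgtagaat
A_55_P2114187: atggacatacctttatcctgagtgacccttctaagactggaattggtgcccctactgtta
A_65_P06446: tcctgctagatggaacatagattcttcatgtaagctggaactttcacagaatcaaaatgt
A_66_P124179: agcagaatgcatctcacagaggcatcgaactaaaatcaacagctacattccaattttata

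More of the catalogue gene probes were detected than of the other classes, and those detected were brighter. A probe was counted as detected where the scanner software marked it well above background. The share detected was 66.9% ± 1.94 (SD over 6 arrays), against 53.6% ± 3.60 for A_30 probes and 52.8% ± 4.27 for custom probes. The gap was 13.3 percentage points to A_30 and 14.1 to custom probes, and it was positive on 6 of 6 arrays in both cases. An exact sign-flip test over the 6 arrays, two-sided, gave p = 0.031 for each, the smallest value 6 arrays allow, and 0.031 after adjustment over the 2 comparisons. The same probes sit on all 6 arrays, so here and below this test tells only whether a gap repeats from array to array. It does not measure the spread over probes. With the software's less strict mark, a positive signal significantly above background, the gaps were 5.53 and 7.96 points.

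Among detected probes the median log2 processed signal, before any scaling between arrays, was 8.57 ± 0.11 (SD over 6 arrays) for the catalogue gene probes. A_30 probes had a median of 6.10 ± 0.10 and custom probes one of 6.29 ± 0.14. The differences of 2.48 and 2.29 on the log2 scale were again positive on 6 of 6 arrays (exact sign-flip test, two-sided, p = 0.031 for each, 0.031 after adjustment). The median GC content was 41.7% for catalogue gene probes and for custom probes, and 45% for A_30 probes. Whether GC content plays a part in these gaps was not tested.

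The share of probes detected differed between M1 and M2 by less than the spread between arrays. The shares in M1 replicates 1, 2 and 3 were 68.6%, 67.0% and 64.1%, and in M2 replicates 1, 2 and 3 they were 65.7%, 69.4% and 66.5%. The means were 66.6% ± 2.28 (SD, n = 3) and 67.2% ± 1.97 (SD, n = 3), a difference of -0.628 points (exact permutation test, two-sided, p = 0.800, where 3 against 3 arrays cannot go below 0.1). The sign of this difference turned without M1 replicate 3 (0.598 points) or without M2 replicate 2 (0.486 points).

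The prefixes kept one order of detection on every array. A_65_P was highest at 76.6% ± 1.58 (SD over 6 arrays), then A_51_P at 72.1% ± 1.74, A_52_P at 67.5% ± 1.75, A_55_P at 65.5% ± 2.05 and A_66_P at 62.3% ± 1.92. All 10 pairs of prefixes differed in the same direction on 6 of 6 arrays. The gap was 1.95 points between A_52_P and A_55_P and 14.3 between A_65_P and A_66_P. The exact sign-flip test, two-sided, gave p = 0.031 for each pair and 0.031 after adjustment over 10 pairs. It again speaks of repetition over arrays and not of the spread over probes. The order of brightness was not the same. Median log2 signal of detected probes was 9.28 ± 0.13 for A_51_P, 8.95 ± 0.14 for A_65_P, 8.43 ± 0.11 for A_55_P, 8.35 ± 0.14 for A_52_P and 8.07 ± 0.12 for A_66_P. The smallest step, 0.08 between A_55_P and A_52_P, ran the same way on 6 of 6 arrays.

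Of the 39430 probes, 24061 (61.0%) were well above background on all 6 arrays and 10446 (26.5%) on none. Another 93 (0.236%) were detected on all M1 arrays but none of the M2 arrays, and the reverse held for 121 (0.307%). The shares were close to these in the other classes, at 0.191% and 0.228% of A_30 probes and 0.171% and 0.267% of custom probes. A_66_P had the largest shares of such probes, 0.499% for M1 and 0.699% for M2, against 0.192% and 0.268% for A_55_P; these differences between prefixes were not tested. No spot was saturated.

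Detection was more frequent at higher GC content of the probe. Among 611 probes with under 30% GC, 49.8% ± 1.79 (SD over 6 arrays) were detected. The share was 60.8% ± 1.67 between 30% and 40% GC, 67.6% ± 2.16 between 40% and 50%, 80.2% ± 2.17 between 50% and 60%, and 88.6% ± 1.41 for the 232 probes at 60% or more. The median log2 signal of all probes in these steps was 3.55, 5.58, 6.10, 7.00 and 7.97. Calls ran the other way: 6.46%, 5.86%, 5.35%, 4.14% and 0.493% of the tested probes in the same steps passed the test described next, the last being 1 of 203 probes.

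The comparison of M1 with M2 asks which transcripts the activation states express at different levels. It used the scaled signal, which is the log2 processed signal after subtraction of the 75th percentile of all non-control probes of the same array. A probe entered the test where the 3 arrays of either group all showed it well above background, which held for 25596 of the 39430 probes. Of the 13834 not tested, 13822 were too dim and 12 lacked values. The limma fit and the Benjamini-Hochberg adjustment ran over all 79834 probes tested on the array, and a call required at least a 2-fold difference with an adjusted p below 0.05.

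In the catalogue gene class 1349 probes (5.27%) were called, where 3.82% of all tested probes were. Of these, 784 were higher in M1, which is 3.06% of the class, beside 2.03% of all tested probes. The other 565, or 2.21%, were higher in M2, beside 1.79%. All values of the 2 groups lay apart in 7777 probes (30.4%), beside 24.8% of all tested probes. The median difference of the 25596 probes was 0.04 on the log2 scale, and that of all tested probes was 0.00.

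The number of calls rested on replicates 1 and 2. Leaving out M1 replicate 1 or 2 gave 712 or 760 calls, and leaving out M2 replicate 1 or 2 gave 687 or 603. Leaving out replicate 3 gave 1469 calls in the case of M1 and 1244 in the case of M2. Within this class the median gap between M1 replicates 1 and 2 was 0.09 on the log2 scale, against 0.37 and 0.36 for replicate 3 with either of them. Gaps of over 2-fold were seen in 0.438% of 25565 probes in the first pair and in 9.12% and 9.25% in the others. In M2 the median gap was 0.15 between replicates 1 and 2, and 0.28 and 0.34 with replicate 3. The arrays lie on 2 slides, with the M1 arrays and M2 replicate 1 on slide 1 and M2 replicates 2 and 3 on slide 2. With the slide as a block, which leaves 1 M2 array against 3 M1 arrays within slide 1, 179 probes were called.

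The majority of calls towards M1 depended on the scaling. As reported, 58.1% of the calls were higher in M1. When each array was scaled to the 75th percentile of the catalogue gene probes themselves, 608 of 1262 calls (48.2%) were higher in M1, and with median scaling 864 of 1400 (61.7%) were. It was also below 50% with replicates 1 and 2 averaged as 1 sample (45.8%), with the slide as a block (48.0%) and without M2 replicate 2 (48.9%). The median difference of the class was -0.07 under the first of these and 0.12 under the second.

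Calls were found at every level of signal. When all tested probes on the array were put into 4 bins of equal size by mean scaled signal, the catalogue gene probes filled them unevenly, with 15.3%, 17.0%, 24.0% and 43.8% from dim to bright. The share called was 6.13%, 4.56%, 5.12% and 5.33% in these bins. Custom probes of the same bins had 3.85%, 2.58%, 2.94% and 4.0%, and A_30 probes had 2.82%, 1.94%, 2.36% and 2.20%. The share of calls that were higher in M1 was 45.8% in the dimmest bin and 55.1%, 57.0% and 64.7% in the following ones. A rise was also seen in custom probes, at 39.1%, 45.9%, 52.3% and 54.4%. In A_30 probes the shares were 62.2%, 76.1%, 63.8% and 83.3%. From the dimmest to the brightest bin the median difference of tested probes rose in every class. It went from -0.08 to 0.09 in catalogue gene, -0.10 to 0.05 in A_30 and -0.09 to 0.07 in custom probes. The classes hold probes for different transcripts, and the differences between them were not tested.

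By prefix, the share of tested probes called was 6.35% for A_51_P (316 of 4975), 5.77% for A_66_P (70 of 1214), 5.70% for A_52_P (193 of 3386), 5.62% for A_65_P (10 of 178) and 4.80% for A_55_P (760 of 15843). Each of these stands beside the 3.82% of all tested probes, which include them. The split by direction was close in the 4 larger prefixes, with 184 of 316 A_51_P calls, 116 of 193 A_52_P calls, 439 of 760 A_55_P calls and 43 of 70 A_66_P calls higher in M1. A_65_P ran the other way, with 2 of its 10 calls higher in M1 and 8 higher in M2, and this difference from the other prefixes was not tested.

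Of the 1349 called probes, 1121 were well above background on all 6 arrays, so that their differences were measured on both sides. These comprised 696 higher in M1, with a median difference of 1.55 on the log2 scale, and 425 higher in M2, with a median of -1.68. At least a 4-fold difference was measured for 233 and 158 of them. At 16-fold or more the counts were 29 and 30, and at 64-fold or more 1 and 6. Among the few probes at 16-fold or more, those higher in M2 were as many or more. The balance of directions depends on the scaling, as given above. These counts were made for this class alone, so whether other classes show the same is not known. By prefix, 4-fold or more was reached by 71 A_51_P probes in M1 and 42 in M2, by 34 and 18 A_52_P probes, by 121 and 86 A_55_P probes, by 7 and 8 A_66_P probes, and by 0 and 4 A_65_P probes.

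The probe with the largest difference measured on both sides was A_51_P167292, which was higher in M2. Its scaled signal was 10.64, 10.41 and 10.31 in M2 replicates 1, 2 and 3, whereas M1 replicates 1, 2 and 3 had 1.73, 2.37 and 1.28. The M2 arrays lay within 0.33 of one another while the lowest of them stood 7.94 above the highest M1 array. The difference was -8.66 (SE 0.29, limma adjusted p = 0.00014), or 405-fold, and within slide 1 it was -8.85. The AATAAA near its 3′ end is described with the other probes that hold this motif.

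A_55_P2114187 had scaled signals of 7.10, 6.88 and 6.37 in M2 and of -0.84, -0.67 and -0.83 in M1, in the order of replicates 1, 2 and 3. Every M2 array was far above every M1 array, and the difference was -7.56 (SE 0.22, limma adjusted p = 0.00014), or 189-fold. A_52_P71686 read 5.64, 5.48 and 5.70 in M2 and 0.36, 0.43 and 0.00 in M1, a difference of -5.34 (SE 0.18, limma adjusted p = 0.00014). A_66_P124179 was as even, at 7.27, 7.22 and 7.47 in M2 against 2.17, 2.22 and 1.99 in M1, a difference of -5.19 (SE 0.16, limma adjusted p = 0.00014). Arrays of 1 group lay within 0.73 of one another in the first of these probes, 0.43 in the second and 0.25 in the third.

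A_65_P06446 was the probe of the smallest prefix with the largest difference towards M2. It had 6.80, 6.86 and 7.49 in M2 against 3.85, 3.93 and 2.92 in M1, a difference of -3.48 (SE 0.33, limma adjusted p = 0.00251). The call was lost with the slide as a block (within slide 1, -3.23, limma adjusted p = 0.0694). All 7 A_65_P probes called higher in M2 and measured on both sides had differences between -3.48 and -1.01.

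Towards M1 the largest difference was that of A_51_P517695. Its scaled signal was 3.63, 3.55 and 4.43 in M1 replicates 1, 2 and 3, while the M2 arrays gave -1.99, -1.58 and -3.07 in that order. Replicate 3 was the highest of the M1 arrays and the lowest of the M2 arrays, so it widened the gap on both sides. The difference was 6.09 (SE 0.42, limma adjusted p = 0.000938), or 67.9-fold, and 5.86 within slide 1.

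A_66_P108965 read 4.75, 4.53 and 5.38 in M1 against -0.10, -0.01 and -0.47 in M2. The difference was 5.08 (SE 0.26, limma adjusted p = 0.000529), or 33.9-fold, with replicate 3 again at the outer end in both groups. A_65_P01319, 1 of the 2 A_65_P probes called higher in M1, had 3.33, 3.24 and 3.10 in M1 and 1.77, 1.56 and 2.09 in M2. Its difference of 1.42 (SE 0.19, limma adjusted p = 0.0095) was not called in 5 of 20 alternative analyses, over which the adjusted p reached 0.190.

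The other largest probes towards M1 varied widely between replicates. A_55_P2158741 stood at 7.07, 6.59 and 10.11 in M1 replicates 1, 2 and 3 against 2.15, 1.90 and 2.73 in M2, giving a difference of 5.66 (SE 0.86, limma adjusted p = 0.0149). A_52_P327664 stood at 5.26, 4.73 and 8.07 in M1 against 1.60, 1.53 and 2.77 in M2, giving a difference of 4.05 (SE 0.85, limma adjusted p = 0.0473). M1 replicate 3 lay 3.04 above the next M1 array in the first and 2.81 in the second, and all M1 arrays stood above all M2 arrays in both. The first was not called in 4 of 20 alternative analyses (adjusted p up to 0.188), and the second in 9 of 20 (adjusted p up to 0.318).

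Some called probes were well above background in 1 group alone. Among the called probes, 52 stood well above background on all M1 arrays and none of the M2 arrays, and the reverse held for 78. The shares of all probes with this pattern, called or not, are given above for each class. Only a lower bound can be given for them, the mean of the bright group against the mean, over the dim arrays, of the dim probe's own signal or the array's lowest signal well above background, whichever was higher. It reached 2-fold or more in 39 of the 52, among which the median was 3.69-fold, and in 55 of the 78, where it was 3.54-fold. The 3 probes with the highest bounds towards M1 and then the 3 towards M2 were:
A_66_P116173: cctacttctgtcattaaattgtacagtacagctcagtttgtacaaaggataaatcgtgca
A_51_P203675: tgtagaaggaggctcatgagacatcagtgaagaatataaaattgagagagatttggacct
A_51_P460279: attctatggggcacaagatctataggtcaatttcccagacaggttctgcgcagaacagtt
A_51_P257951: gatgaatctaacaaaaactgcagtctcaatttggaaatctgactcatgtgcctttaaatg
A_66_P133397: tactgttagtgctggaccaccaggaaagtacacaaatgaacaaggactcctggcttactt
A_65_P16753: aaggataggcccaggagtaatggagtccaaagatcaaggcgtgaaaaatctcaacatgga

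A_51_P257951 had the highest bound of the class. Its scaled signal was 5.25, 5.31 and 8.07 in M2 replicates 1, 2 and 3, and it was not well above background on any M1 array. It was at least 987-fold higher in M2, with M2 replicate 3 far above the other M2 arrays. A_66_P133397 (2.77, 2.76 and 2.03 in M2) was at least 76.5-fold higher in M2, and A_65_P16753 (2.38, 2.23 and 2.13 in M2) at least 63.3-fold.

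Towards M1 the bounds were smaller. A_66_P116173 read 1.30, 1.25 and 1.07 in M1 replicates 1, 2 and 3 and was at least 31.3-fold higher there. A_51_P203675 read 1.15, 1.08 and 0.90 and was at least 28.0-fold higher. A_51_P460279 read -0.22, -0.34 and 0.48 and was at least 13.3-fold higher. No p-values are given for these 6 probes. They entered the fit through their bright group alone, and their readings in the dim group are background signal. The remaining 98 called probes of the class were detected on only some arrays of a group.

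Catalogue gene probes that hold a GT or an AC repeat read alike within each of these sets. Probes were searched for a run of at least 24 nt of a repeated unit of 1 to 4 bases on the strand printed, with every starting base of the unit allowed. Such runs were found in 127 catalogue gene probes, all with the prefix A_55_P, and in 0 A_30 and 0 custom probes. The commonest units were GT in 36 probes, AAG in 34, AC in 11 and AGG in 11. One probe of each is shown, the one with the difference nearest the median of its unit, with the whole units of its run in capitals:
A_55_P2112424: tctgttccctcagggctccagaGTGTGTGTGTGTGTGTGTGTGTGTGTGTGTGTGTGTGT
A_55_P2005903: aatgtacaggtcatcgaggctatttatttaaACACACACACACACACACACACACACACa
A_55_P2028847: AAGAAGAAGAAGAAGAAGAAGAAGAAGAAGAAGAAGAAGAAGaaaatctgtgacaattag
A_55_P1959639: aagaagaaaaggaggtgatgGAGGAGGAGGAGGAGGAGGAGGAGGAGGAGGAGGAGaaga

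The 36 GT probes were among the brightest of the class and read lower in M1. All 36 were well above background on all 6 arrays, and their mean signal lay at the percentile 96.9 of the class or higher, with a median of 99.5. The median scaled signal of the 36 was 9.54, 9.67 and 9.36 in M1 replicates 1, 2 and 3, while the M2 arrays gave 10.17, 10.06 and 11.05 in that order. Each of the 36 had all M1 arrays below all M2 arrays, where 24.8% of all tested probes had groups that lay apart in either direction. Differences ran from -1.88 to -0.51 with a median of -1.12. None was called (limma adjusted p from 0.0633 to 0.287).

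The 11 AC probes carry the reverse complement of the GT run and differed the other way. Their median scaled signal was 3.76, 3.81 and 4.63 in M1 and 3.02, 2.74 and 1.32 in M2, so they were dimmer than the GT probes on every array. All 11 had every M1 array above every M2 array, with differences from 1.53 to 1.77 and a median of 1.67. None was called here either (limma adjusted p from 0.0940 to 0.132). In both sets replicate 3 held the widest gap between the groups. The GT example above, A_55_P2112424, read 9.75, 9.85 and 9.50 in M1 and 10.56, 10.36 and 11.48 in M2, and the AC example, A_55_P2005903, read 3.10, 3.14 and 4.03 against 2.49, 2.11 and 0.65.

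The directions of both sets were the same for every probe under all 20 alternatives in which it was tested. Most of these could not have turned a direction. With every M1 array on one side of every M2 array, dropping, averaging or blocking arrays keeps the sign. The filters on dim probes and the intensity trend leave the fitted difference as it is. The other scalings shift all differences by nearly the same amount. The median difference of the class was 0.04 in the main fit and between -0.07 and 0.12 under them. That is too little to turn any GT or AC direction. Quantile normalization, normexp and the authors' table change the values of each probe, and the directions were the same there. The median GT difference was -0.83 within slide 1 and -0.68 without replicate 3 in both groups. The median AC difference was 1.01 within slide 1 and 0.87 without replicate 3. With normexp background correction 19 of the 36 GT probes were called, and 18 of 35 when the values of the authors' deposited table were fitted. The AC probes were not called under any alternative, although without replicate 3 their adjusted p ran from 0.00984 to 0.031, with differences under 2-fold in the median. These probes share their run of sequence, so they are not independent measurements.

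The other repeat units found in at least 5 probes were AAG, AGG, AG and GTT, and none of their probes was called. The 34 AAG probes had median scaled signals of 5.09, 5.08 and 4.46 in M1 and 5.39, 5.47 and 4.31 in M2. Their differences lay between -0.29 and 0.05, 0 of the 34 had groups that lay apart, and the median moved between -0.53 without M2 replicate 3 and 0.05 without M2 replicate 2. The 11 AGG probes had differences between -0.06 and 0.08. In the AAG and AGG sets the groups overlapped in every probe, with replicate 3 lower than replicates 1 and 2 of its group for the median AAG probe. The 5 AG probes had differences between -0.24 and 0.65 with a median of 0.48, and in 4 of them all M1 arrays stood above all M2 arrays (limma adjusted p from 0.115 to 0.772). The 5 GTT probes had differences between 0.07 and 0.31, and the groups lay apart in 2 of them, with M1 higher (limma adjusted p from 0.440 to 0.891). With quantile normalization, the 75th percentile of the catalogue gene probes or the authors' deposited table, 1 of the 5 GTT differences was negative.

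AATAAA on the probe's own strand was more frequent in this class than in the others. It was present in 12.6% of the catalogue gene probes, 3.92% of A_30 probes and 6.71% of custom probes. Within the class it was commonest in A_55_P, at 16.4%, then A_66_P at 10.4%, A_65_P at 8.90%, A_51_P at 5.32% and A_52_P at 4.92%. Its reverse complement TTTATT was found in 4.03% of the class, 3.03% of A_30 probes and 4.36% of custom probes. Probes can hold both, and TTTATT can overlap the TATTTAT counted further on.

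Catalogue gene probes with AATAAA were detected more often and were brighter than those without it, though poorer in GC, at a median of 38.3% against 43.3%. They were detected at 71.8% ± 1.33 against 66.2% ± 2.03 (SD over 6 arrays), a gap of 5.67 points, and the median log2 signal of those detected was 9.89 ± 0.09 against 8.41 ± 0.12. Both gaps were positive on 6 of 6 arrays (exact sign-flip test, two-sided, p = 0.031 for each), which again speaks of arrays and not of the spread over probes. The brightness gap was 1.88 on the log2 scale in A_55_P, 0.79 in A_51_P, 0.78 in A_52_P and 0.66 in A_66_P. In A_65_P, with 21 such probes, it was -0.40. The detection gap was -14.3 points in A_65_P, negative on 6 of 6 arrays, and -0.668 points in A_52_P, with both signs among the arrays. These comparisons were chosen after the data were seen.

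The motif was about as frequent among calls as among the probes tested. It was present in 13.6% of tested probes of the class, in 100 of the 784 called higher in M1 (12.8%) and in 89 of the 565 called higher in M2 (15.8%). TATTTAT was present in 1.19% of tested probes, in 14 of the 784 (1.79%) and in 6 of the 565 (1.06%). Its reverse complement ATAAATA was present in 1.32%, in 8 of the 784 (1.02%) and in 12 of the 565 (2.12%). No test was made on these shares.

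Where catalogue gene probes overlap one another on the same strand by at least 30 nt, they gave close readings. There were 588 such pairs, and in 469 both probes were tested. Their differences had a median gap of 0.07 on the log2 scale and Pearson's r was 0.883 across pairs, which share sequence and sample. With the repeat probes left out, r was 0.911 over 242 pairs. Both probes were called in 16 pairs, in the same direction in 16, and 1 alone in 2 more. The pairs with the largest differences are shown, first towards M1 and then towards M2, with the shared bases in capitals:
A_55_P2018176: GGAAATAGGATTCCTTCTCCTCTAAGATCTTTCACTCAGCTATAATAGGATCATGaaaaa
A_55_P2109564: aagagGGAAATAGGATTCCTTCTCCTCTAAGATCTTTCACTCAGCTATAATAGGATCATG
A_55_P2031631: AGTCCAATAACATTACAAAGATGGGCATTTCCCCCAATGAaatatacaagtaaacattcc
A_55_P2085984: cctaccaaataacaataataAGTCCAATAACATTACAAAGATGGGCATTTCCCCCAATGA

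The first pair shares 55 nt. A_55_P2018176 read 0.68, 0.68 and -0.43 in M1 and -2.39, -2.41 and -1.51 in M2, giving a difference of 2.41 (SE 0.39, limma adjusted p = 0.0179). A_55_P2109564 read 0.65, 0.56 and -0.54 in M1 and -2.75, -2.29 and -2.39 in M2, giving a difference of 2.70 (SE 0.34, limma adjusted p = 0.00725). Both show the lower M1 replicate 3. With the slide as a block both lost their call (limma adjusted p = 0.157 and 0.0854), and of 19 alternative analyses 6 did not call the first and 2 did not call the second. The second pair shares 40 nt and was closer still, with A_55_P2031631 at 5.25, 5.44 and 4.61 in M1 and 8.71, 8.61 and 9.32 in M2. A_55_P2085984 read 5.22, 5.34 and 4.53 in M1 and 8.76, 8.63 and 9.31 in M2, and the differences were -3.78 (SE 0.29, limma adjusted p = 0.00122) and -3.87 (SE 0.28, limma adjusted p = 0.0011).

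Custom probes that overlap a catalogue gene probe on the same strand gave close readings too. In 1999 such pairs with both tested, r was 0.966 and the median gap in differences was 0.07. Both probes were called in 89 pairs and 1 alone in 23, and the directions were the same in all of these. On opposite strands the readings were less alike, with r at 0.488 over 105 pairs of catalogue gene and custom probes, while the mean signal of the strands differed by a median of 3.49 on the log2 scale. For the 37 pairs of catalogue gene probes on opposite strands r was -0.838. It was -0.0426 over the 19 pairs left when the repeat probes above were set aside, so the negative value rested on the repeat probes.

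A gene name could be given to few probes. Sequences were set against the RefSeq start windows of GRCm38.p6, which span 250 bases before to 50 bases after each annotated gene start. In all, 311 probes (0.789%) matched the window of 1 gene alone, in full or across its edge by at least 30 bases. The windows cover only the start of each gene, so most probes could not be matched. Of the 212 lying whole in a window, 106 ran along the gene's strand and 106 against it, and 58 of each were detected on all 6 arrays. The lists of macrophage and cell type genes drawn up for this work hold 478 genes, of which 4 were matched in this way. They are Cdk1, Eno2, Etfb and Hbb-bs. The probes of Cdk1 and Hbb-bs were too dim to be tested, and those of Eno2 and Etfb were tested but not called. With so few matches the M1 and M2 marker lists were not analysed here.

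Of the 311 probes, 192 were tested and 6 (3.12%) were called, beside 3.82% of all tested probes, with 3 in each direction. Capitals mark the bases that match the window:
A_55_P1973347: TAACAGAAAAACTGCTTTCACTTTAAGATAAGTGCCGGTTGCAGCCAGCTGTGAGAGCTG
A_52_P198727: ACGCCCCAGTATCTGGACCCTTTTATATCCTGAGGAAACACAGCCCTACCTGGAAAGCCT
A_55_P2029366: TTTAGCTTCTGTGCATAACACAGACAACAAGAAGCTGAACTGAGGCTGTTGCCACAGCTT
A_55_P2088785: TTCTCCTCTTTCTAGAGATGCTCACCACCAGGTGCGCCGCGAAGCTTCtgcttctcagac
A_55_P2027737: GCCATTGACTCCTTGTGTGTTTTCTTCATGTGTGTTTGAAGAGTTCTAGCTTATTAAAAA
A_55_P2131951: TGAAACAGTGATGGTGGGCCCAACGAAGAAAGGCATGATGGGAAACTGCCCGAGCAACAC

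A_55_P1973347 lies at chr7:48741883-48741942 (GRCm38.p6), on the strand of the predicted gene Gm45086 and 79 to 20 bases before its annotated start. It read 5.01, 4.97 and 5.23 in M1 and 3.64, 3.74 and 3.50 in M2, and the difference was 1.44 (SE 0.16, limma adjusted p = 0.00486). A_52_P198727 lies at chr10:77984554-77984613 against the strand of Gm51807, 189 to 130 bases before its start. It read 3.95, 3.86 and 4.18 in M1 and 2.43, 2.29 and 2.62 in M2, and the difference was 1.55 (SE 0.18, limma adjusted p = 0.00497). In both, all M1 arrays stood above all M2 arrays, by at least 1.23.

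A_55_P2029366 lies at chr14:8055602-8055661 against the strand of Gm41094 and across its start, from 52 bases before to base 8. It read -1.73, -1.41 and -1.28 in M1 and -3.18, -3.13 and -3.58 in M2, where it was well above background on 2 of the 3 arrays. The fitted difference was 1.82. No p-value is given, because the probe entered the fit through its M1 arrays alone and its M2 side is partly background signal.

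Higher in M2 was A_55_P2088785, whose first 48 bases match bases 3 to 50 of LOC115489115 at chrX:136214921-136214968, on the gene's strand. It read -0.94, -0.91 and -0.96 in M2 and -2.50, -2.68 and -2.60 in M1, a difference of -1.66 (SE 0.15, limma adjusted p = 0.00212). A_55_P2131951 lies at chr10:67582639-67582698 on the strand of Gm32364, 100 to 41 bases before its start. It read -1.26, -1.54 and -2.33 in M2 and was not well above background on any M1 array.

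A_55_P2027737 lies at chr1:40465342-40465401 on the strand of Il18r1, 210 to 151 bases before the annotated start of this gene, which codes for the receptor subunit that binds interleukin-18. It read -1.11, -1.31 and -1.34 in M2 and -3.37, -4.13 and -5.52 in M1, where it was well above background on 1 array. It entered the fit through its M2 arrays alone, and its M1 readings were mostly background signal, so no p-value is given. The fitted difference was -3.09, and the probe was not called in 7 of the 19 alternative analyses that tested it. The table gives 1 start a gene, and the probe lies before it, so the reading is of sequence next to that start and was not matched to the gene's mRNA. All 6 calls were lost with the slide as a block. The 3 probes that were not above background on all 6 arrays fall outside the naming rule and are given to complete the count of 6.

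The authors' deposited table lists 37401 probes, all of them of this class, and leaves out 2029. By prefix the probes left out numbered 1482 for A_55_P, 200 for A_66_P, 196 for A_52_P, 145 for A_51_P and 6 for A_65_P. Those left out were detected at 50.3% and those listed at 67.8% (means over 6 arrays), and 31 of the 1349 called probes are not in that table.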

How the data were processed

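Per the file headers, the values deposited per array are spot intensity from Agilent Feature Extraction 10.7.1.1, with background subtracted and no normalization between arrays. RNA was labelled with Cy3 by a whole-transcript kit, per the labels' protocols. The deposited table holds log2 values, and its normalization is not given in the sources used here; its values matched quantile-normalized log2 processed intensity to within 0.0157.

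Control spots and outlier-marked spots were left out. Signals were scaled to each array's 75th percentile and fitted with lmFit and eBayes of limma 3.58.1 (R 4.3.3) over all tested probes. The procedure was tested on simulated data with 200 changed probes. At a log2 difference of 2 it recovered 112 of them (56%) with 3 false calls, so many changes of that size were missed. At a log2 difference of 3 it recovered 164 (82%) with 6 false calls. Detection and brightness used exact permutation tests in Python 3.11.15. The number of arrays limits precision. Named were, per prefix and direction, the called probe with the largest difference, detected on 6 arrays without overlap, and the 3 highest bounds per direction.

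Within the class, deviations of same-numbered arrays correlated at 0.174, 0.186 and 0.274 over 25563 probes. M1 replicate 1 with M2 replicate 2 gave 0.247, and M1 replicate 2 with M2 replicate 1 gave 0.167. Replicate 3 thus stood apart in both groups, while these values do not pair replicates 1 and 2 by number. The labels do not say whether equal numbers mark a pair. The members, lists and tests were chosen with earlier results of these data known. Of the alternatives, 20 were planned and 2 added after seeing the data. The repeat search, the motif counts and the comparisons between prefixes were also added then.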

Additional observations from a re-analysis of the deposited data

How the results depend on the processing

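The count of 1349 calls (784 higher in M1, 565 in M2) stayed within 1.5 times under the other scalings, normexp, the authors' table, outlier spots kept, detection on all 6 arrays, the intensity trend and no fold threshold. With the replicate number as a block, a pairing that the labels do not state, 1627 were called. Of the 1349, 1287 were among them, and no call of a named probe was lost. Without the filter on dim probes 767 were called (412 and 355; A_51_P 197, A_52_P 106, A_55_P 422, A_66_P 35), with 39418 probes of the class tested. With the slide as a block 179 were called (86 and 93; by prefix from A_51_P to A_66_P 54, 24, 88, 2 and 11). Leaving out 1 array gave 603 to 1469 calls, 295 to 850 higher in M1 and 308 to 619 higher in M2; by prefix it gave 149 to 363 for A_51_P, 80 to 215 for A_52_P, 339 to 803 for A_55_P, 6 to 14 for A_65_P and 29 to 74 for A_66_P. Without replicate 3 in both groups 2217 were called (1334 and 883; A_51_P 551, A_55_P 1249, A_65_P 17, A_66_P 112), and with replicates 1 and 2 averaged 277 (127 and 150; by prefix 69, 36, 154, 3 and 15). The cause was not tested. The detection difference of M1 and M2 ran from -1.66 to 0.598 points with 1 array left out, changing sign without M1 replicate 3 (0.598) and without M2 replicate 2 (0.486). Both-called overlapping pairs numbered 10 at 45 nt or more, and 248 probes lay whole in 1 start window with up to 2 mismatched bases. Among the 10 named probes, 6 kept their call under all 20 alternatives; the other 4 lost it with the slide as a block, A_65_P06446 under that setting alone. In all 10 the direction was the same throughout, which for fits on fewer arrays follows from the lack of overlap. Alternatives for the gene lists were left out because the probes have no gene names here. Signal over background limits the dim probes, whose differences are bounds.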
